A study of Mus musculus with 3 samples.

Results

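Glycolysis splits glucose into pyruvate in the cytosol, and 10 of its mouse genes were followed here through the H3K4me1 peaks of adipocytes lacking the mitochondrial protease LONP1 and of wild-type adipocytes. The genes were chosen by name. They encode the hexokinases that trap glucose (Hk1 and Hk2), the 3 phosphofructokinase subunits (Pfkl, Pfkm and Pfkp), the kinase-phosphatase that makes their activator (Pfkfb3), aldolase A (Aldoa), glyceraldehyde-3-phosphate dehydrogenase (Gapdh), pyruvate kinase (Pkm) and lactate dehydrogenase A (Ldha). All 10 were matched by symbol among 21631 protein-coding genes. Their peaks were those that touched the gene body or the 10 kb on either side of it, 75 of 62361 AKO peaks and 90 of 72040 WT peaks.

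Chromatin immunoprecipitation and sequencing of histone H3 monomethylated at lysine 4, a mark found at enhancers and on the flanks of active promoters, was run on adipocytes taken as primary cells from C57BL/6J males. The AKO library came from mice with an adipocyte-specific deletion of Lonp1, the WT library from wild-type control mice, and an input library without antibody was the background for both peak lists. The series asks where the mark lies at LONP1-dependent genes of thermogenic (beige) fat. How many animals were pooled, from which depot, at what age and with which Cre driver was not given in the sources used here. The antibody label reads H3K4me, and the sample titles H3K4me1. The window of Lonp1 itself held 6.21 kb of peaks in AKO and 8.75 kb in WT, which does not check the deletion, since a histone mark can be called on flanking sequence. After removal of duplicates the AKO library held 14733950 tags, the WT library 15015805 and the input 9537585. There was 1 library per genotype, so no test between genotypes exists: every difference below is one between these 2 libraries, and intervals cover counting error only.

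Glycolysis is controlled chiefly at its irreversible steps, those of hexokinase, phosphofructokinase and pyruvate kinase. In fat cells it supplies pyruvate for oxidation and for new fatty acids, glycerol phosphate for triglyceride, and lactate for export. Hk2 is the hexokinase of insulin-responsive tissues, whereas Hk1 is expressed in most cells. Several genes of the pathway, Ldha and Hk2 among them, are known targets of hypoxia-inducible factor, which binds sites with the core ACGTG.

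The promoters are shown first because H3K4me1 was mostly called beside them and not on them. RefSeq (GRCm38.p6) lists 19 start sites for the 10 genes. The window of 300 bases around the start (250 before and 50 from it on) overlapped an AKO peak at 1 of them and a WT peak at 3, which is 5.26% and 15.8%. Over 21045 start sites of protein-coding genes the shares were 8.86% in AKO and 16.1% in WT. The 5 stretches printed are the 250 bases before the start of Aldoa (the first listed site, inside a peak, and a second site 1.19 kb downstream, outside any), Pfkp (in a WT peak but in no AKO peak), and Hk2 and Ldha (in no peak). Capitals mark the hypoxia response core, the E-box and the GC box on either strand. The core is ACGTG. The E-box is spelled CACGTG and contains the core on both strands. The GC box is spelled GGGCGG.
Aldoa first site, chr7:126800448-126800697, minus strand: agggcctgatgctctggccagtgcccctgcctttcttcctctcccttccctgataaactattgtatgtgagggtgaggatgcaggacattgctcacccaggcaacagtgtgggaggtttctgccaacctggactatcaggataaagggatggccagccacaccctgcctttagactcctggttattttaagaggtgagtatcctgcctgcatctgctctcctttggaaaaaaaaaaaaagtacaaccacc
Aldoa second site, chr7:126799255-126799504, minus strand: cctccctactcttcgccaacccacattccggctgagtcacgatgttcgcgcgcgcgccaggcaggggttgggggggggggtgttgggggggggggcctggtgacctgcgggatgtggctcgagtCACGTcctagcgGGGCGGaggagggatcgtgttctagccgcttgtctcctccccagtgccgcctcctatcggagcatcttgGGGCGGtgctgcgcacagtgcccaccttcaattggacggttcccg
Pfkp, chr13:6648772-6649021, minus strand: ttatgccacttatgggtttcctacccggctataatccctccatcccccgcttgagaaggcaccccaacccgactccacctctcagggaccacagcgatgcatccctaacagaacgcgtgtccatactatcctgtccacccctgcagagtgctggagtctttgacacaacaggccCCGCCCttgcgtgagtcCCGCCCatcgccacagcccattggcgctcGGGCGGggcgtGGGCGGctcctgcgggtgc
Hk2, chr6:82774455-82774704, minus strand: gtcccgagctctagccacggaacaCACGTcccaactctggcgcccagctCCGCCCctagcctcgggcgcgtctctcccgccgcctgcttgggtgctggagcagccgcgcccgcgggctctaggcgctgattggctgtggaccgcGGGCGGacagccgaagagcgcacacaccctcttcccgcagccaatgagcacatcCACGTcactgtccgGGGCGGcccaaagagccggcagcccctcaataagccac
Ldha, chr7:46845554-46845803, plus strand: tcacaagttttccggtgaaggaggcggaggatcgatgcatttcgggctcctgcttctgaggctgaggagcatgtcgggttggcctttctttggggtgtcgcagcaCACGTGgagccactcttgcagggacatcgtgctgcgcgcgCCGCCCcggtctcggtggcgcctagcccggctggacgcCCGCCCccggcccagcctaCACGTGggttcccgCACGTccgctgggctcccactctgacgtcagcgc

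The 2 Aldoa sites differ in composition. The stretch inside the peak has 50.4% G and C and no CG dinucleotide (observed over expected 0.00), and the stretch outside it has 67.6% and a CG ratio of 0.743. All 250 bases of the first lay in a WT peak and 56 in an AKO peak. At Pfkp the WT peak covered the 115 bases farthest from the start, and the 4 places with GGGCGG lie nearer to the start than those. ACGTG was found at 3 places before the Ldha start, 2 of them within CACGTG, and at 2 places before the Hk2 start. Among the 19 stretches, 9 (from 6 genes) hold ACGTG, 3 hold CACGTG and 8 hold GGGCGG. Of all 21045 stretches of the same length, 17.9% hold ACGTG, 6.70% hold CACGTG and 43.1% hold GGGCGG. The median G and C content was 60.4% in the 19 and 55.6% in all stretches, and the shares were not adjusted for this. Stretches of neighbouring start sites of Aldoa and of Pfkm overlap, so the 19 are not independent. The remaining WT promoter peak lay at an internal Pfkm start, 19.5 kb from the first, and covered 146 of its 250 bases.

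The nearest AKO peaks mostly lay farther from the start sites, at several genes by little. For 9 of the 10 genes the nearest AKO peak lay farther from the first listed start site than the nearest WT peak, against 63.5% of 17274 protein-coding genes. The median distance over the 10 genes was 2.77 kb in AKO and 0.862 kb in WT, and over all those genes 9.31 kb in AKO and 5.18 kb in WT. Pkm was the exception, with its nearest AKO peak at 3.81 kb and its nearest WT peak at 3.87 kb. Among the other 9 the gap was small at Hk2 (3.22 kb in AKO and 3.11 kb in WT), Pfkl, Pfkfb3, Aldoa and Ldha. It was larger at Gapdh (2.45 kb in AKO and 0.999 kb in WT), Pfkp, Hk1 and Pfkm. The 17274 genes were not limited to well-marked ones, so the shares do not compare like genes. The nearest peak could lie outside the gene's window, as the AKO peak 65.0 kb from the Pfkm start did. Gene bodies held most of the summits, 61 of the 75 in AKO and 67 of the 90 in WT. Of these, 40 in AKO and 43 in WT lay on the start side of the gene's midpoint. Bodies also make up most of the summed windows, and no background over all genes was taken for these counts. The map of peaks by distance from the start shows this layout for each gene.

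**Figure D1:**
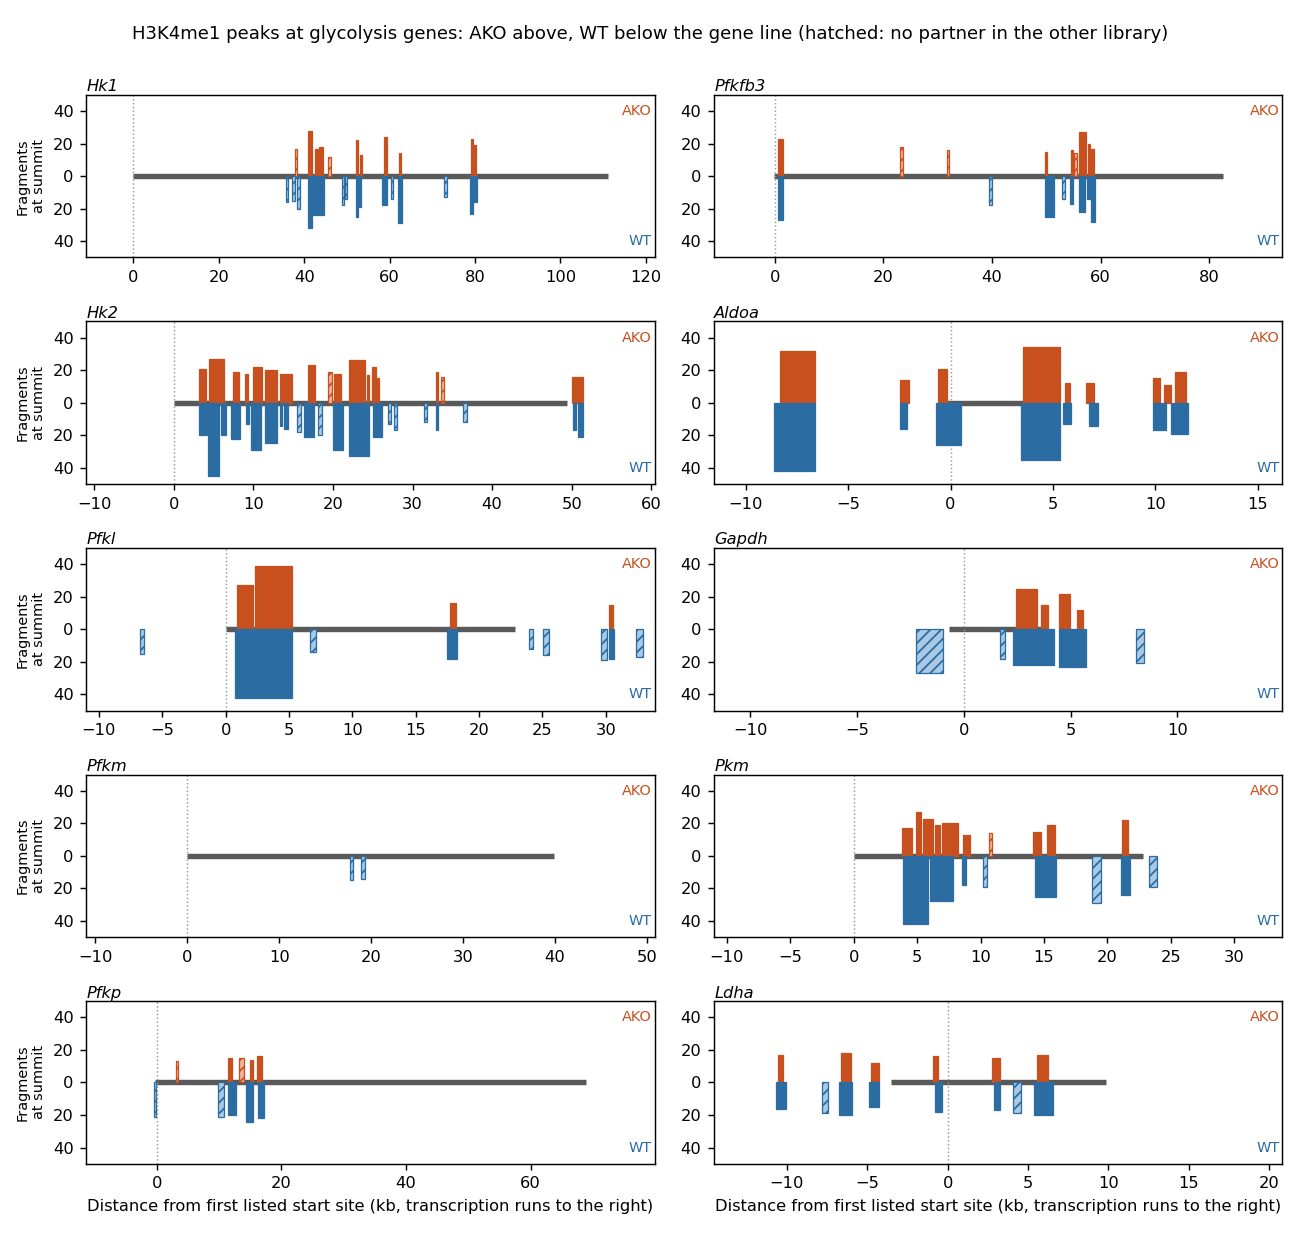
Peaks at the 10 glycolysis genes, with the distance from the first listed start site in kb on the horizontal axis and the fragments at the summit on the vertical axis, AKO above and WT below the gene line; a bar is as wide as its peak, and hatched bars have no partner in the other library. The row of broad peaks within Hk2, which begins 3.22 kb (AKO) and 3.11 kb (WT) past the start, and the single domain at the head of Pfkl are the most continuous blocks, while Pfkm has no AKO peak.

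Peak length at the glycolysis genes was shorter in AKO at every member. It summed to 52.2 kb in AKO and 73.8 kb in WT, a ratio of 0.708, and the same ratio over all protein-coding genes was 0.724. All 10 genes had less in AKO, against 54.1% of all protein-coding genes and 78.4% of those with a peak in either library. Among the 7473 genes with a mean of at least 2 kb over the 2 libraries the share was 87.8%, and 9 members were of that kind, so most genes with this much mark went the same way. No member had more in AKO, against 14.9% of all genes. The median difference, AKO minus WT, was −1.91 kb over the members, −0.176 kb over all genes and −1.75 kb over the 7473. The median AKO to WT ratio was 0.679 over the members, with Pfkm at 0, and 0.708 over the 7473. The 7473 genes were not matched to the members for length, and Pfkm is not of their kind.

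**Figure D2:**
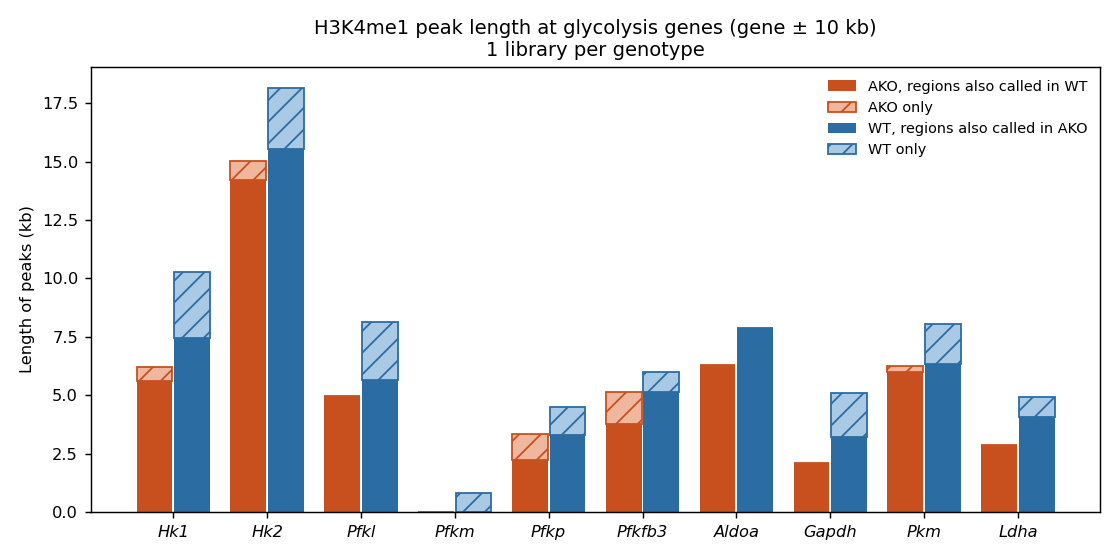
Length of H3K4me1 peaks in kb in the gene body and 10 kb on either side, for each glycolysis gene, AKO left of WT; solid parts lie in regions called in both libraries and hatched parts in regions called in 1. Hk2 has the tallest bars, 15.0 kb in AKO and 18.2 kb in WT, and Pfkm has 0.825 kb in WT alone.

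A rule of size took the place of a test. Genes counted as lower in AKO when WT peak length exceeded AKO peak length more than 2 times and by 2 kb or more, and as higher when AKO exceeded WT by as much. Gapdh alone was called lower and no member was called higher, against 5.35% and 0.227% of all protein-coding genes, or 14.1% called lower among the 8217 genes with at least 2 kb in WT. Of the 10 members, 9 had that much and could have been called. This share of members is near the background and is no result about glycolysis genes as a group.

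**Figure D3:**
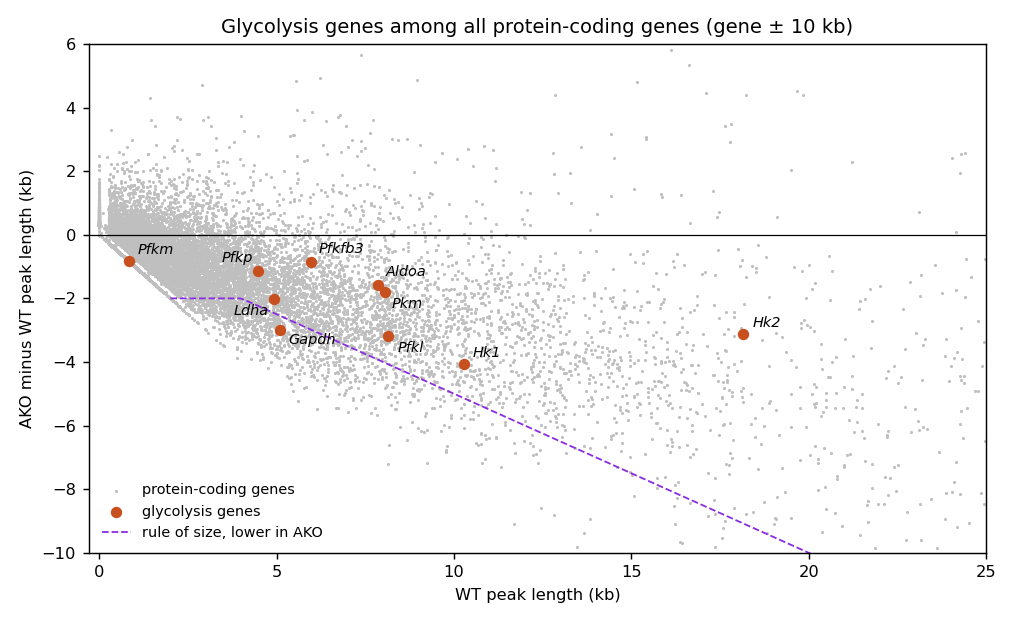
AKO minus WT peak length in kb against WT peak length in kb, with each grey point a protein-coding gene, the glycolysis genes in orange, and the dashed line the limit below which the rule of size calls a gene lower; 310 genes lie beyond 25 kb on the horizontal axis and 20 more beyond the vertical one. The glycolysis genes lie within the cloud, and Gapdh alone lies below the line.

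Hk2, the hexokinase of insulin-responsive tissues (chromosome 6, 82725025 to 82774454), was the most marked member. Its window held 17 AKO peaks with 15.0 kb and 22 WT peaks with 18.2 kb, so that 21.6% of it was covered in AKO and 26.2% in WT. This placed it among the most covered genes of either library: 2.29% of protein-coding genes had at least as much in AKO and 2.50% in WT. Most of its peaks in both libraries lay in a row within the first 26 kb past the start. Of the peaks, 6 in AKO and 9 in WT were at least 1 kb wide.

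The highest Hk2 summit of each library, near the head of the row, was lower in AKO. The AKO peak there, from 82768165 to 82770046, was 1882 bp wide with 27 fragments (exact Poisson interval 17.8 to 39.3), and the WT peak, from 82768717 to 82770174, was 1458 bp wide with 45 fragments (32.8 to 60.2). In pileup, which the authors scaled down to the size of the input, this was 17.5 in AKO and 28.6 in WT, a ratio of 0.612 whose counting interval of 0.365 to 1.01 includes 1. The AKO peak was the wider and joined 2 WT peaks, so the summits were not at the same base: the AKO summit lay 6.04 kb and the WT summit 4.69 kb past the start. The other WT peak of the region (82767901 to 82768536) contains the base of the AKO summit and had 20 fragments. At that place, therefore, the AKO summit of 27 fragments was the higher. A second block, with its summit 22.4 kb (AKO) and 22.7 kb (WT) past the start, held a 1991 bp AKO peak with 26 fragments (82750449 to 82752439) and a 2513 bp WT peak with 33 (82749885 to 82752397). A further pair was almost of 1 width, with 1417 bp and 20 fragments in AKO (82761517 to 82762933) and 1466 bp and 25 fragments in WT (82761470 to 82762935). Over the 13 Hk2 regions called in both libraries, the AKO pileup was the lower in 7 and the higher in 6. Only 2 AKO peaks and 6 WT peaks of the gene had no partner, and each of these had at most 20 fragments. The height at Hk2 thus went both ways, while the summed length was shorter in AKO.

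Hk1, the hexokinase of most cells (chromosome 10, 62268855 to 62379920), is longer and was marked more sparsely, with 11 AKO peaks (6.22 kb) and 15 WT peaks (10.3 kb). The difference of −4.06 kb was the largest of the 10 genes with the authors' lists. No peak lay near its first listed start, with the nearest at 37.9 kb in AKO and 21.7 kb in WT. The WT peak at 21.7 kb lies beyond the gene's window. The first WT summit within the gene was 36.0 kb past the start, where the gene Hk1os overlaps Hk1. The densest stretch was instead just past the second listed start, 39.5 kb downstream. There the highest AKO peak (62338157 to 62338987) was 831 bp wide with 28 fragments and the highest WT peak (62338167 to 62339055) was 889 bp wide with 32. Beside it a WT peak of 2681 bp with 24 fragments (62335186 to 62337866) met 2 AKO peaks, the wider one of 1001 bp with 18 fragments (62335407 to 62336407). A WT peak of 1192 bp with 18 fragments (62320425 to 62321616) met a 674 bp AKO peak with 24 fragments, so that at this site the AKO summit was the higher.

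Only 1 of the 52 shared regions of all members had a counting interval of its height ratio clear of 1, and it lay in Hk1. This was the region from 62317114 to 62317921, with 14 fragments in AKO and 29 in WT, a ratio of 0.492 (0.240 to 0.962). It is the lowest of 52 ratios, and its interval is not adjusted for that choice. The regions in WT but not AKO numbered 7 at Hk1, and those in AKO but not WT numbered 2.

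Among the phosphofructokinase genes, whose products form the tetramers of the committed step, Pfkl carried the mark most strongly. Pfkl encodes the liver-type subunit (chromosome 10, 77986947 to 78009807) and had 4 AKO peaks (4.98 kb) and 9 WT peaks (8.15 kb). One domain at the head of the gene made up most of that. In WT it was a single peak of 4483 bp with 42 fragments and a fold enrichment of 11.59 (78004601 to 78009083), the widest WT peak at any member. In AKO it was called as 2 peaks, of 2868 bp with 39 fragments and a fold enrichment of 11.04 (78004584 to 78007451) and of 1286 bp with 27 fragments (78007624 to 78008909). The pileup of 25.3 in AKO and 26.7 in WT gives a ratio of 0.946 (0.596 to 1.499), so the highest summits of this domain did not differ beyond counting error. They were not at the same base, 2.9 kb past the start in AKO and 4.1 kb in WT. An interval of this width does not show that the height was unchanged. Most of the difference of −3.17 kb lay outside this domain. The 6 WT peaks without a partner held 2.48 kb and had 12 to 19 fragments, and 2 of them had their summits in the neighbouring gene Cfap410.

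Pfkm, the muscle-type subunit (chromosome 15, 98092589 to 98132447), was the least marked member. It had no AKO peak, and its WT peaks were 398 bp with 15 fragments (98110261 to 98110658) and 427 bp with 14 fragments (98111529 to 98111955). Both WT summits are close to the 10 fragments of the smallest summit called anywhere in either list, so the difference of −0.825 kb at Pfkm rests on weak peaks.

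Pfkp, the platelet-type subunit (chromosome 13, 6579874 to 6649060), had 5 peaks in each library, with 3.34 kb in AKO and 4.48 kb in WT. Apart from the WT peak at the promoter, the mark lay 3 to 17 kb past the start, where the non-coding gene Gm35730 overlaps Pfkp. Each of the 3 shared regions was lower in AKO, with 16, 14 and 15 fragments at their summits in AKO against 22, 24 and 20 in WT. The highest AKO peak (6631815 to 6632717) was 903 bp wide and the highest WT peak (6633279 to 6634356) was 1078 bp wide. A further WT peak of 1254 bp lay at 6636055 to 6637308. The median pileup ratio of 0.742 was the lowest of the members, over 3 regions. The WT promoter peak (6648907 to 6649263) was 357 bp wide with 21 fragments.

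Pfkfb3, which makes the activator of phosphofructokinase (chromosome 2, 11471430 to 11554071), was among the members with the smallest differences. It had 9 AKO peaks (5.13 kb) and 8 WT peaks (5.98 kb), so peaks were more numerous in AKO while their summed length was shorter. The mark lay mainly in 2 places, a peak just past the first start and a cluster around the second listed start, 51.8 kb downstream. At the first start an 805 bp AKO peak with 23 fragments (11552459 to 11553263) faced an 874 bp WT peak with 27 (11552480 to 11553353). In the cluster the heights went both ways. The AKO peak at 11496592 to 11497865 was 1274 bp wide with 27 fragments and its WT partner at 11496718 to 11497858 was 1141 bp wide with 22. The 1629 bp WT peak at 11502466 to 11504094, with 25 fragments, met an AKO peak of only 347 bp with 15. The summits of this pair lie where the gene Gm52500 overlaps Pfkfb3. Of the AKO peaks 3 had no WT partner and of the WT peaks 2 had no AKO partner. The 3 AKO peaks without a partner, which lie apart from each other, summed to 1.36 kb.

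In the steps that follow, aldolase cleaves the doubly phosphorylated hexose and Gapdh takes the first electrons of the pathway onto NAD. Aldoa (chromosome 7, 126795234 to 126800994) had 9 AKO peaks (6.29 kb) and 8 WT peaks (7.87 kb), and every one of them had a partner. Its 25.8 kb window was the most densely marked of the members, covered to 24.4% in AKO and 30.5% in WT. The peak across the far end of the gene was alike in width and summit count in both libraries, with 1842 bp and 34 fragments in AKO (126795077 to 126796918) and 1891 bp and 35 fragments in WT (126795122 to 126797012), a ratio of 0.990 (0.599 to 1.63). Its summits were not at the same base, 4.4 kb past the start in AKO and 5.0 kb in WT. The peak 7.7 kb before the start had 1721 bp and 32 fragments in AKO (126807046 to 126808766) and 2038 bp and 42 fragments in WT (126807055 to 126809092). At the promoter the AKO peak was 422 bp wide with 21 fragments (126800642 to 126801063) and the WT peak 1231 bp wide with 26 (126799914 to 126801144). Of the Aldoa peaks, the one at the promoter thus differed most in width. The summits farthest past the start lie in the phosphatase gene Ppp4c.

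Gapdh (chromosome 6, 125161852 to 125166467) was the member called lower, with 4 AKO peaks (2.097 kb) and 5 WT peaks (5.08 kb). The highest summit within the gene had 25 fragments in AKO and 22 in WT, but these summits were not at the same base. The highest AKO peak (125162348 to 125163319) was 972 bp wide, with its summit 3.1 kb past the start. With a second, 316 bp wide, it met a single WT peak of 1948 bp (125161545 to 125163492), a pileup ratio of 1.16 (0.627 to 2.16). The WT summit lay 3.9 kb past the start, within the 316 bp AKO peak, which had 15 fragments. At that place, therefore, the WT summit of 22 fragments was the higher. In the neighbouring gene Iffo1 AKO peaks of 539 bp with 22 fragments and 270 bp with 12 fragments covered 809 bp. They faced a 1261 bp WT peak with 23 fragments (125160059 to 125161319). The WT peaks with no AKO partner held 1.87 kb. The highest of them, with 27 fragments over 1234 bp (125166772 to 125168005), lay between Gapdh and Ncapd2, 1.74 kb before the Gapdh start. Its fold enrichment was 3.63, and when only peaks at a fold enrichment of 4 or more were kept Gapdh had 1.83 kb in AKO and 3.57 kb in WT and was no longer called.

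The last 2 members turn phosphoenolpyruvate into pyruvate and pyruvate into lactate. Pkm (chromosome 9, 59656576 to 59679372) had 10 AKO peaks (6.24 kb) and 8 WT peaks (8.04 kb), and its main domain was split into more peaks in AKO. From 4 to 8 kb past the start, WT had peaks of 1969 bp with 42 fragments (59660447 to 59662415) and 1752 bp with 28 fragments (59662629 to 59664380). In the same region AKO had 5 peaks, the highest of 387 bp with 27 fragments (59661482 to 59661868) and the widest of 1242 bp with 20 fragments (59663565 to 59664806). The pileup ratio was 0.655 (0.388 to 1.09), while the covered length was 3.61 kb in AKO and 3.72 kb in WT. The summits of the 1752 bp WT peak and the 1242 bp AKO peak lie where the gene LOC115487221 overlaps Pkm. The AKO pileup was the lower in all 4 shared regions of Pkm, with a median ratio of 0.756. A 1635 bp WT peak with 25 fragments (59670889 to 59672523) met 2 AKO peaks. The WT peak with most fragments among those without a partner at any member lay at 59675330 to 59676074, with 29 fragments over 745 bp.

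Ldha (chromosome 7, 46842274 to 46855627) carried a weak, scattered mark, with 6 AKO peaks (2.89 kb) and 8 WT peaks (4.91 kb). No Ldha summit exceeded 18 fragments in AKO or 20 in WT. All 6 AKO peaks had a WT partner, and 6 of the 8 WT peaks had an AKO partner. The AKO pileup was the lower in 5 of the 6 shared regions, with a median ratio of 0.903. The widest peaks faced each other 6 kb past the start, 696 bp with 17 fragments in AKO and 1167 bp with 20 fragments in WT (46851189 to 46852355). The peak closest to the printed promoter was 328 bp wide with 16 fragments in AKO (46844881 to 46845208) and 437 bp wide with 18 fragments in WT (46845036 to 46845472).

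Across the 10 genes, partners were found for most peaks. An AKO peak had a WT partner (an overlap of at least 1 bp) in 65 of 75 cases, 86.7% (Wilson 95% interval 77.2 to 92.6). The other 10 made up 13.3%, against 23.8% of all AKO peaks without a partner. When only peaks with −log10 q of 5 or more were kept, 21 of 26 AKO peaks had a partner, 80.8%, against 80.5% of all AKO peaks. The gap was gone in these few peaks. It remained when at least 50% of the peak had to be overlapped, with 81.3% against 69.1% of all AKO peaks. It also remained for a partner within 1 kb, with 94.7% against 84.7%. A WT peak had an AKO partner in 57 of 90 cases, 63.3% (53.0 to 72.6). The other 33 made up 36.7%, against 39.6% of all WT peaks without one, which is near the background. Peaks of a gene lie side by side and are not independent, which these intervals do not cover. Peaks without a partner were weaker. Their summits had a median of 15.5 fragments in AKO and 17 in WT, against 18 in AKO and 21 in WT for peaks with a partner. The merged peaks formed 95 regions, of which 10 were called in AKO only, 33 in WT only and 52 in both. In the genome 17.6% of 84384 regions were called in AKO only and 33.8% in WT only.

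Height in the 52 shared regions was lower in AKO for 38, 73.1%, against 71.8% of 41022 shared regions of the genome, and higher for 14. The median pileup in these 52 was 12.3 in AKO and 13.7 in WT. The median AKO to WT ratio was 0.892 at the glycolysis genes and 0.858 over all shared regions, so the members stood close to the genome in height. In 82.7% of the 52 the AKO peaks summed to less length than the WT peaks, against 68.8% of all shared regions. A split region counts by the sum of its peaks, and regions of a gene are not independent. The 52 held 48.0 kb in AKO and 58.5 kb in WT. Of the summed difference of −21.6 kb, 48.5% lay in these shared regions. Regions called in 1 library held 4.16 kb in AKO and 15.3 kb in WT. In 7 shared regions a single WT peak met several AKO peaks, against 11.1% of shared regions in the genome, and in 3 a single AKO peak met several WT peaks, against 3.84%.

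**Figure D4:**
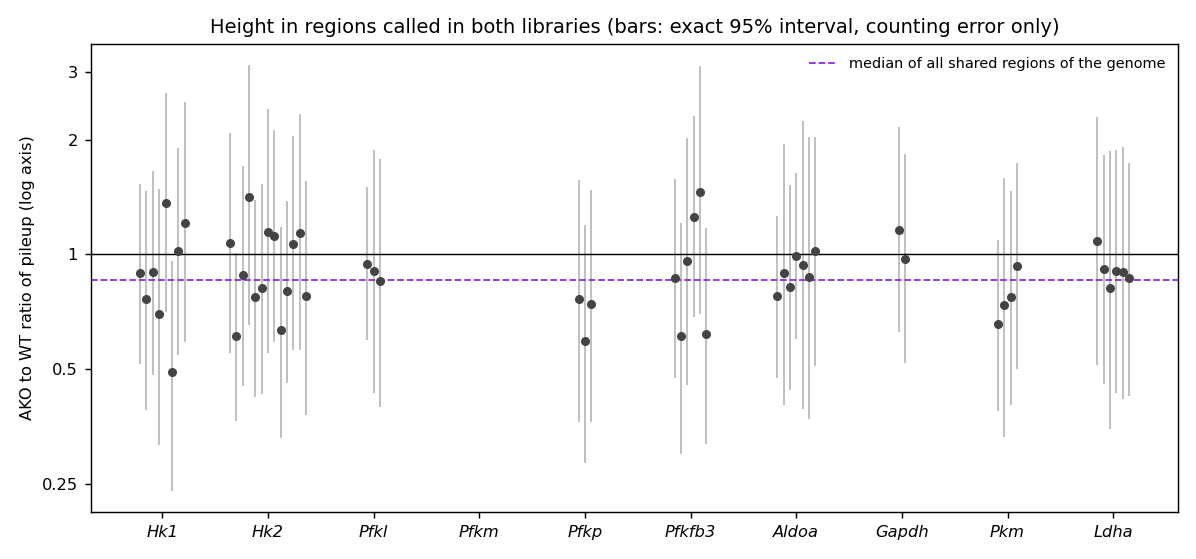
AKO to WT ratio of pileup on a log axis for each of the 52 regions called in both libraries, by gene and in order of distance from the start, with exact 95% intervals for counting error; the solid line is 1 and the dashed line the genome-wide median of 0.858. All intervals but 1, in Hk1, include 1, and Pfkm has no shared region.

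The rest of the pathway, a list of 39 further genes of glycolysis, glucose and lactate transport, gluconeogenesis and pyruvate oxidation, had a like ratio but smaller differences. Peak length was less in AKO for 25 (64.1%, against 54.1% of all protein-coding genes), more for 4 and absent from both libraries for 10. None met the rule of size, against 5.35% of all genes lower and 0.227% higher, and 15 of the list had at least 2 kb in WT. The list summed to 88.1 kb in AKO and 124.5 kb in WT, a ratio of 0.707, and its median difference was −0.463 kb, against −0.176 kb over all genes. The largest deficits were at Pfkfb4, a further maker of the phosphofructokinase activator (7.95 kb in AKO and 12.4 kb in WT), and Eno3, the muscle enolase (7.42 kb in AKO and 11.1 kb in WT). More length in AKO was seen at Pdk1, a kinase that restrains pyruvate dehydrogenase (0.620 kb in AKO and no WT peak), Bpgm, bisphosphoglycerate mutase (2.70 kb in AKO and 2.16 kb in WT), and Pfkfb2 (1.39 kb in AKO and 0.993 kb in WT). The Pdk1 value rests on a single AKO peak of 12 fragments.

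Peak length in the windows of cell type markers was also shorter in AKO in the sum of each list. All 7 adipocyte markers (Adipoq, Pparg, Fabp4, Plin1, Cidec, Lipe and Lep) had a peak in both libraries, with a sum of 14.6 kb in AKO and 21.8 kb in WT. Of these, 6 had less length in AKO, and Adipoq, which encodes adiponectin, had more, with 1.31 kb in AKO and 0.995 kb in WT. Markers of other cells also had peaks, with 10.6 kb in AKO and 17.3 kb in WT over 4 macrophage genes, 4.91 kb in AKO and 11.3 kb in WT over 3 endothelial genes, 2.52 kb in AKO and 9.31 kb in WT over 3 lymphocyte genes, and 3.60 kb in AKO and 7.18 kb in WT over 3 skeletal muscle genes. Most of the lymphocyte sum came from Il2rb, with 2.23 kb in AKO and 8.68 kb in WT. The defining markers Adgre1, Cd3e and Myod1 had no peak in either library. The part of other cells in the differences at glycolysis genes was not tested.

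**Figure D5:**
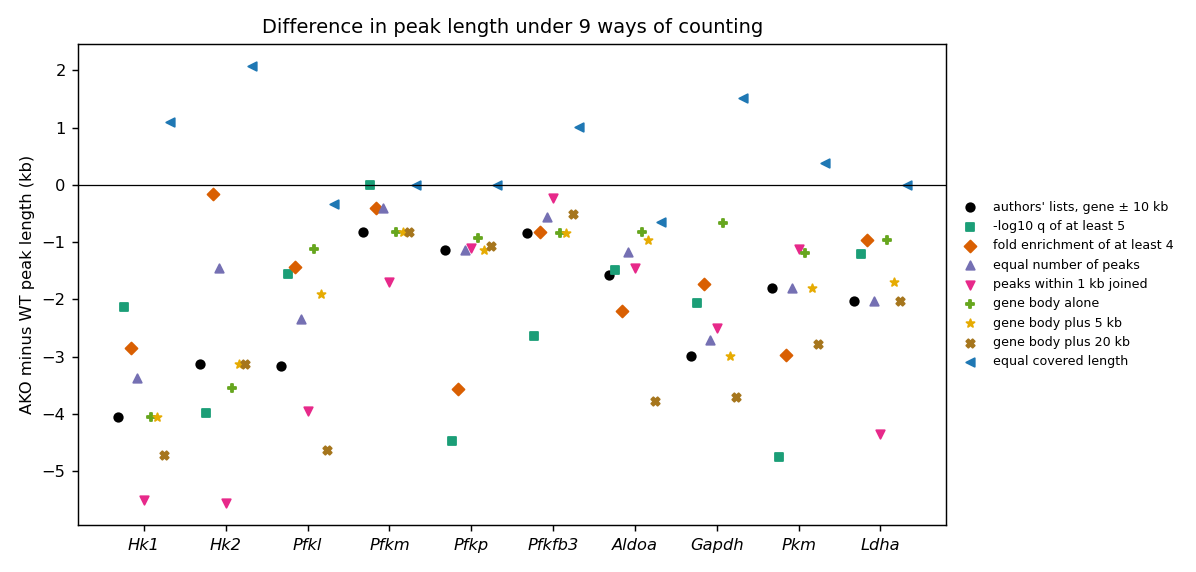
AKO minus WT peak length in kb for each glycolysis gene under 9 ways of counting, with black circles for the authors' lists in the gene body and 10 kb on either side. All values but 1 lie below 0 except in the setting in which both lists were limited to the same covered length, where Hk1, Hk2, Pfkfb3, Gapdh and Pkm lie above 0; the exception is Pfkm, at 0 with −log10 q of at least 5.

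Summed lengths depended on which peaks were kept. When only peaks with −log10 q of 5 or more were kept, the members summed to 25.6 kb in AKO and 49.9 kb in WT. The ratio was 0.513, against 0.554 over all protein-coding genes. Pfkp (no peak left in AKO and 4.48 kb in WT), Pfkfb3 (1.68 kb in AKO and 4.32 kb in WT) and Pkm (2.36 kb in AKO and 7.12 kb in WT) were called lower beside Gapdh. In that setting 2385 of 21631 protein-coding genes were called lower. Those 21631 include genes without a peak, and the share among genes with at least 2 kb in WT was not taken there. The members called are thus no result about glycolysis genes as a group. When each list was limited to its strongest peaks up to the same covered length, a setting added after the data were seen, the direction of the members' sum turned, with 24.7 kb in AKO and 19.6 kb in WT, a ratio of 1.26. Over all protein-coding genes the ratio in this setting was 0.935 and did not turn, and 23.9% of them had less length in AKO. The share with more was not taken, and the rule of size called 533 of the 21631 lower and 464 higher. The limit to equal covered length keeps 19719 AKO peaks and 12001 WT peaks.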

How the data were processed

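H3K4me1 ChIP-seq peaks of 1 AKO and 1 WT library were used. The tools in the submitters' processing notes are MACS2 2.2.1, Bowtie2 2.2.5, FastQC 0.11.3 and bcl2fastq, with build mm10, while the file headers name MACS 2.1.1.20160309. The input, named in its title as the AKO control but labelled wild type, served both libraries. Per the file headers, each library was compared with the same input in narrow mode at a q-value cutoff of 0.05, with 1 tag kept per position. Narrow mode splits broad domains, so peak number and width depend on it. The authors deposited, per peak, the pileup signal scaled to the input, the fold enrichment and −log10 p and q. Positions were used as 1-based mm10 coordinates. Pileup divided by the library's scale factor (0.647 in AKO, 0.635 in WT) was whole within 0.02 for 100.0% of peaks and gave fragments at summits. A summit count is a maximum, so its interval is approximate. Genes and promoters came from RefSeq tables of GRCm38.p6, the assembly of mm10, and exons were not used here.

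Lengths were summed with pandas 2.3.3, numpy 2.4.6 and scipy 1.17.1 under Python 3.11.15 on chromosomes 1 to 19 and X, and the scripts were tested on simulated data. The members and lists were chosen with earlier results of these data known. Named beyond the 10 genes were those of the wider list with the 3 largest differences in each direction, of which 1 is not reported here. For each gene the highest peak of each library and peaks of at least 1 kb were named, up to 6, with a few others chosen after their values were seen. Alternatives covered stricter peaks, equal peak numbers, joined peaks, other windows, other overlaps and other measures of height.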

Additional observations from a re-analysis of the deposited data

How the results depend on the processing

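No paired analysis was possible because there was 1 library per genotype, and for the same reason no replicate could be left out. Of 80 values of single genes under the alternatives, 62 kept their direction and their side of the rule of size, 4 were at a difference of 0 (Pfkm at −log10 q of 5 or more, and Pfkm, Pfkp and Ldha at equal covered length), 5 newly met the rule, 4 no longer met it and 5 turned. The count of members with less length in AKO, 10, was 9 when −log10 q was 5 or more, as Pfkm then had no peak, and 10 for a fold enrichment of 4 or more, equal peak numbers, joined peaks or other windows. Of all protein-coding genes 49.4% had less length at that q limit, and between 44.4% and 58.4% under the others. The number called lower by the rule of size, 1 (Gapdh), was 4 at that q limit and 0 for gene bodies alone or for windows of 20 kb on either side. It stayed at 1 at that fold limit, but for Pfkp, and with peaks within 1 kb joined, but for Ldha. The summed ratio of 0.708 was 0.513 at the q limit, where that of all protein-coding genes was 0.554. The members' ratio lay between 0.702 and 0.755 under the others just named. With both lists at the same covered length, chosen after the data were seen, the ratio turned to 1.26, while that of all protein-coding genes was 0.935. In that setting 2 members had less length in AKO and 5 more, and 0 were called lower. Of all protein-coding genes 23.9% had less, and the share with more was not taken. The rule of size called 533 of the 21631 lower and 464 higher there. The 5 members with more differed by 1.09 kb at Hk1, 2.08 kb at Hk2, 1.003 kb at Pfkfb3, 1.51 kb at Gapdh and 0.388 kb at Pkm. By construction the setting reaches further down the AKO list. AKO peaks had a partner in 94.7% of cases within 1 kb (all AKO peaks 84.7%) and in 80.8% at the q limit (all 80.5%), against 86.7% by overlap. WT peaks had one in 75.6% within 1 kb (all WT peaks 73.2%) and in 48.8% at the q limit (all 44.2%), against 63.3% by overlap. With at least 50% of the peak overlapped the share was 81.3% in AKO (all 69.1%) and 55.6% in WT (all 48.0%). Fragments scaled to library size or fold enrichment in place of pileup left the median height ratio between 0.892 and 0.902. No site with fewer than 10 fragments was called in either list at this depth.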
